A study of Mus musculus with 12 samples.

Results

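The genes that encode collagen chains were followed in 12 RNA-seq libraries of mouse embryonic stem cells (mESC) with and without PROSER1, a nuclear protein that associates with TET enzymes. A row of the expression table was counted as a collagen chain where its symbol was Col, a collagen number, the letter a and a chain number. By this rule 44 of the 35976 genes in the table were members. Of these, 27 reached a mean of 10 normalised counts over all 12 libraries and entered the tests, and 17 stayed below. A normalised count is a gene's read count divided by a size factor that puts the libraries on one scale.

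All lines came from blastocysts carrying TET2 fl/fl alleles and were grown on gelatin without feeder cells. There were 3 genotypes: the unedited line (WT), 1 PROSER1 knockout clone made with a CRISPR guide to exon 1 (KO), and that clone carrying a PiggyBac transgene for FLAG-tagged mouse Proser1, selected with blasticidin and subcloned (KO+Rescue). Each genotype was sequenced as mESC, kept in serum with LIF, the MEK inhibitor PD0325901 and the GSK3 inhibitor CHIR99021 until plating, and again at day 2, 48 h after the move to N2B27, a serum-free medium without those factors in which mESC leave naive pluripotency. Each of the 6 groups held 2 libraries, called A and B after the letters in the table, and A is given first throughout. The columns of the edited lines carry a clone number, to which an R is added in 4 of them, and no label ties either form to a genotype. They were read here as KO and KO+Rescue. Each edited genotype is 1 clone, so an effect of the gene and a property of the clone cannot be told apart.

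Collagens are built from 3 chains wound into a triple helix, made of chains of 1 or of several genes. Type IV chains, encoded by the Col4a genes, assemble into the sheet-like network of basement membranes, and the α1 and α2 chains are the form found in nearly all of them. Fibrillar chains such as those of Col1a1, Col2a1 and Col5a1 pack into the fibrils of connective tissue and cartilage. Fibril-associated (FACIT) chains such as Col9a2 sit on those fibrils, and Col6a chains form beaded filaments. Col18a1 encodes a multiplexin of basement membranes whose C-terminal fragment is endostatin. In the early embryo basement membrane forms beneath the epiblast as it leaves the naive state.

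The paired layout of the 2 main type IV genes is shown first, since they share a start region and both rose at day 2. RefSeq places Col4a1 (chr8:11198423-11312889, minus strand) and Col4a2 (chr8:11312805-11449287, plus strand; GRCm38.p6) head to head. The gene bounds overlap by 85 bases, and the annotated start sites lie 22 bases apart, counting both. The first line holds the stretch from one start site to the other (chr8:11312805-11312826) and the second holds 30 bases shortly before the Col4a2 start (chr8:11312763-11312792), both read on the plus strand, with GGGCGG and CCAAT in capitals:
Col4a1-Col4a2 start sites: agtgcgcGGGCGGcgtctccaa
Before the Col4a2 start: gaggagctccCCAATttgttggcgctgccc
The third sequence belongs to Col18a1, the most abundant member, and holds the 160 bases before its upstream start site (chr10:77166531-77166690, minus strand, 5′ to 3′), with CCGCCC, the reverse complement of GGGCGG, in capitals:
Before the upstream Col18a1 start: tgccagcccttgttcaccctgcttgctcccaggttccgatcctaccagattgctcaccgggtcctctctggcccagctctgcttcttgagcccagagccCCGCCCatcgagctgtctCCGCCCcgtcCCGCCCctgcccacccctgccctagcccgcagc

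RefSeq windows of 250 bases before to 50 after a start were at hand for 35 of the 44 members, in 38 windows. The windows of Col4a1 and Col4a2, which share 78 bases, were 74.0% and 73.7% G and C, against a median of 52.7% over 32851 windows of all genes. GGGCGG, searched on both strands, was found 1 time in the Col4a1 window and 3 times in the Col4a2 window. It was present in 23 of the 38 windows of members and in 35.7% of all windows. CCAAT occurred 1 time in each of the Col4a1 and Col4a2 windows, in 13 of 38 windows of members and in 37.4% of all. Neither window held TATAAA (13.6% of all windows) or TGACTCA (5.2%). These are matches of letters only.

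The libraries held 38634668 to 66450803 reads assigned to genes. Proser1 stood at 502 to 1067 normalised counts in the 8 WT and KO libraries, which overlapped, and at 2828 to 3090 in the 4 KO+Rescue libraries. The transcript level therefore checks the KO+Rescue labels and not the KO labels. At day 2 all 8 pluripotency markers tested were lower and all 5 markers of formative or primed cells were higher in each genotype (limma, adjusted p under 0.05), as the stage labels have it. Libraries A and B were not even in the collagen genes: WT A exceeded WT B in 19 of the 27 tested members in mESC and in 22 at day 2, while 51.1% and 48.0% of all tested genes were higher in A. At day 2 KO A exceeded KO B in 22 of 27, where 51.0% of all tested genes were higher in A. The median log2 ratio of A over B in the 27 was 0.51 in WT mESC, 0.17 in WT day 2 and 0.33 in KO day 2. Comparisons with WT or KO are therefore given with the values in each library. In bulk RNA, fewer cells that express a gene and less RNA per cell cannot be told apart.

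Col18a1 held most of the collagen signal. Its reads were 81.8 ± 0.46% (SD, n = 2) of the summed normalised counts of all 44 chains in WT mESC and 75.8 ± 0.0565% at day 2. The share was 80.7 ± 0.0479% in KO mESC and 67.3 ± 0.442% in KO at day 2, and 80.2 ± 1.79% and 68.0 ± 1.16% in KO+Rescue. The sum over all chains went from 7659 ± 2133 to 13874 ± 3406 normalised counts in WT between the stages, from 5854 ± 329 to 13169 ± 543 in KO, and from 4891 ± 346 to 7082 ± 43.3 in KO+Rescue. These sums were not tested.

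Levels of different genes were compared per kilobase of the longest annotated transcript (GENCODE). Over all 12 libraries Col18a1 stood at 981 normalised counts per kilobase, Col4a1 at 99.2, Col9a2 at 44.3, Col4a2 at 33.7, Col2a1 at 33.4, Col5a1 at 30.5 and Col9a3 at 30.5. The next, Col26a1, stood at 15.6, and the other 36 chains were at 8.57 or less. The order changed with the stage. In WT mESC Col9a2 stood at 56.6 ± 12.7 per kilobase (SD, n = 2), Col2a1 at 37.7 ± 13.1 and Col4a1 at 34.2 ± 13.4. Both Col9a2 libraries lay above those of Col2a1 and Col4a1, which overlapped each other. At day 2 Col4a1 was second to Col18a1 in every genotype, at 134 ± 49.6 for WT and 109.9 ± 6.06 for KO+Rescue, and it was highest in KO. Col18a1 has more than 1 annotated start, so the transcript used for its length may not be the one these cells make.

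Apart from Col18a1, the Col4a genes made up a larger part of the collagen signal at day 2 than in mESC in each genotype. Their share of the other 43 chains was 20.1 ± 3.73% (SD, n = 2) in WT mESC and 35.7 ± 4.48% in WT at day 2. In KO it was 29.1 ± 0.241% and 54.0 ± 1.25%, and in KO+Rescue 25.4 ± 2.54% and 45.9 ± 0.507%. The libraries of the 2 stages did not overlap within any genotype, and at day 2 the KO libraries lay above both WT and KO+Rescue. With 2 libraries a group an exact permutation test of such a share cannot pass the threshold, and none was run.

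**Figure D1:**
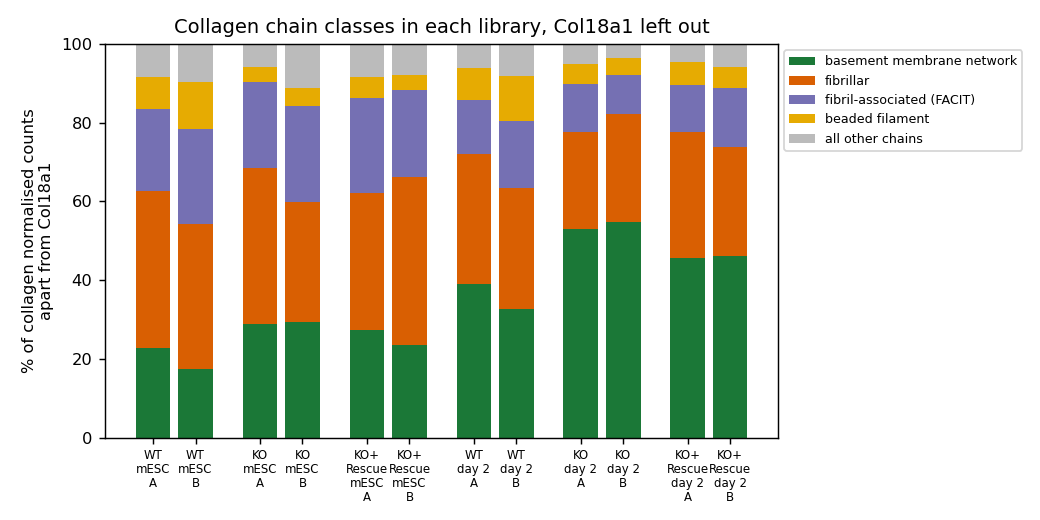
Share of the summed normalised counts of 43 collagen chains (all but Col18a1) held by each class of chain, in percent, 1 bar for each of the 12 libraries. The green part (Col4a genes) is 20.1% on average in WT mESC and 54.0% in KO at day 2.

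The first comparison asks what changed over 48 h in N2B27. All differences are log2 of (normalised count + 1) ± SE with 2 libraries a group, from one limma fit over 15341 genes. A gene was called where its p adjusted by Benjamini and Hochberg over those genes was under 0.05. In WT 15 of the 27 tested chains rose and 0 fell, where 26.6% of all tested genes rose and 25.3% fell. In KO 15 rose (31.4% of all genes) and 0 fell (28.7%). In KO+Rescue 15 rose (29.2%) and 4 fell (29.1%). There were 12 chains that rose in all 3 genotypes, against 21% of all tested genes: Col4a1, Col4a2, Col4a5, Col1a2, Col5a1, Col27a1, Col9a3, Col22a1, Col6a1, Col6a2, Col7a1 and Col8a2. Of the 27, Col4a5, Col6a1, Col6a2, Col8a2 and Col22a1 had a mean under 10 in the mESC libraries and passed the filter through day 2. Among the 22 others 10 rose in each genotype. The median difference over the 27 was 1.42 for WT, 1.37 for KO and 1.20 for KO+Rescue, beside −0.02, 0.02 and −0.03 over all tested genes.

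The main type IV genes rose in every genotype. Col4a1 stood at 289 and 164 (WT), 252 in both libraries (KO) and 210.2 and 175 (KO+Rescue) in mESC. At day 2 Col4a1 reached 1116 and 652 (WT), 1657 and 1651 (KO) and 756 and 699 (KO+Rescue). Every day 2 library lay above every mESC library. The difference was 1.97 ± 0.26 (adjusted p = 4.35e-05) in WT, 2.71 ± 0.26 (adjusted p = 1.91e-06) in KO and 1.92 ± 0.26 (adjusted p = 4.30e-05) in KO+Rescue.

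Col4a2 followed the same course from a lower level. It stood at 84.2 and 34.6 (WT), 74.0 and 58.0 (KO) and 43.9 and 49.9 (KO+Rescue) in mESC. At day 2 Col4a2 reached 379 and 225 (WT), 671 and 559 (KO) and 257 and 294 (KO+Rescue). Again no day 2 library overlapped an mESC library, and the difference was 2.41 ± 0.36 (adjusted p = 9.82e-05) in WT, 3.21 ± 0.36 (adjusted p = 6.39e-06) in KO and 2.53 ± 0.36 (adjusted p = 5.32e-05) in KO+Rescue. For both genes the call held without any 1 library and under every other setting tried. Reads in the 85 bases where the genes overlap could be given to either, since the strand setting of the counting was not given in the sources used here.

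Col4a5, which encodes the α5 chain of some specialised basement membranes and lies on the X chromosome, was nearly silent in WT mESC. Its values were 0 and 1.02 (WT), 11.2 and 8.09 (KO) and 5.23 and 1.78 (KO+Rescue) in mESC. At day 2 Col4a5 stood at 30.9 and 22.5 (WT), 33.2 and 43.4 (KO) and 29.3 and 21.6 (KO+Rescue). The day 2 libraries were above all mESC libraries, and the difference was 4.27 ± 0.59 (adjusted p = 5.44e-05) in WT, 1.89 ± 0.59 (adjusted p = 0.014) in KO and 2.65 ± 0.59 (adjusted p = 0.00181) in KO+Rescue. In WT mESC the 2 libraries held 1 read together, so the ratio of reads per size factor was 49.4 (95% interval 8.62 to 1974), an interval for counting error only. The KO call was lost without KO mESC B (adjusted p = 0.0783) or KO day 2 B (adjusted p = 0.0903).

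The other type IV genes stayed below the mean of 10 set for the limma fit. Col4a6, which lies 1274 bases from Col4a5 on the opposite strand, stood at 0 in both libraries (WT), 1.12 and 0 (KO) and 0 in both libraries (KO+Rescue) in mESC and at 7.26 and 3.62 (WT), 12.6 and 15.7 (KO) and 9.39 and 6.58 (KO+Rescue) at day 2. DESeq2, which sets its own filter on low counts, called Col4a6 higher at day 2 in each genotype (adjusted p = 0.0277 for WT, 0.0283 for KO and 0.0184 for KO+Rescue). Against a floor of 3 reads over the mESC group Col4a6 was at least 3.41-fold higher in WT and at least 3.96-fold higher in KO+Rescue, and 38 reads against 1 in KO gave a ratio of 23.1 (95% interval 3.90 to 935). Col4a4 stood at 0 to 5.34 over all libraries. Col4a3 had 2 reads in all. The α3 and α4 chains, known from the kidney filter, were therefore at or near 0 in these cells.

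**Figure D2:**
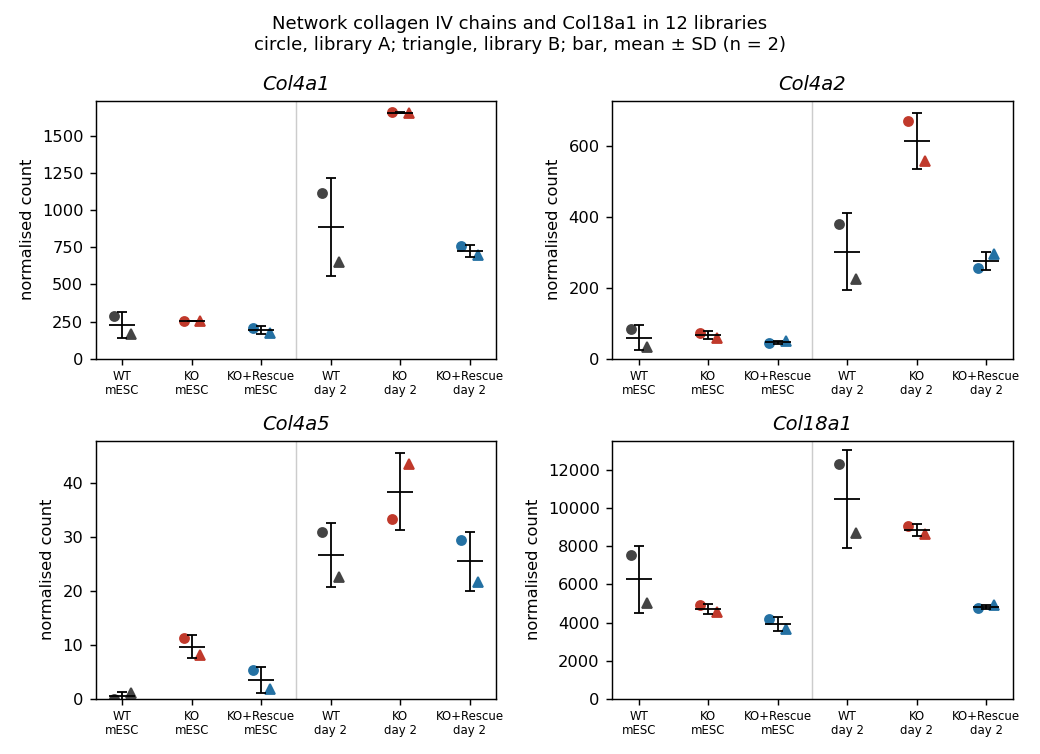
Normalised counts of Col4a1, Col4a2, Col4a5 and Col18a1 in the 12 libraries, by genotype and stage, on linear axes from 0. Circles are library A, triangles library B, and bars the mean ± SD (n = 2). Col4a1 in KO at day 2 sits at 1657 and 1651, above the WT and KO+Rescue libraries.

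Markers of primitive or parietal endoderm, cells that make type IV collagen and laminin in quantity, also moved with the stage. Of the 12 on the list 8 were tested, and 6 rose in WT and 5 in each of KO and KO+Rescue, while Sox7 fell in WT. Their summed level was 105.1 to 189.7 in mESC and 476 to 719 at day 2. At day 2 most of it came from Plat, Amn and Dab2, whereas Gata6 and Sox17 stayed at means of 16.0 or less in every group and Hnf4a at 9.88 or less. At day 2 the sum was 683 and 719 for WT, 593 and 501 for KO, and 476 and 490.3 for KO+Rescue. Other markers of the list had another order of day 2 means: Gata6 stood at 11.7 for WT, 14.1 for KO and 4.81 for KO+Rescue, and Sox17 at 9.92, 16.0 and 3.99. Their part in the rise of the Col4a genes was not tested.

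Col18a1 changed less. In mESC Col18a1 stood at 7526 and 5009 (WT), 4913 and 4534 (KO) and 4183 and 3667 (KO+Rescue). At day 2 Col18a1 stood at 12332 and 8693 (WT), 9079 and 8644 (KO) and 4737 and 4894 (KO+Rescue). The stages did not overlap within a genotype. The difference was 0.75 ± 0.19 (adjusted p = 0.00496) in WT, 0.91 ± 0.19 (adjusted p = 0.00118) in KO and 0.30 ± 0.19 (adjusted p = 0.193) in KO+Rescue. Without WT mESC B the WT call was lost (adjusted p = 0.0618), and likewise without WT day 2 A (adjusted p = 0.054).

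Among the 8 tested fibrillar chains 5 rose in WT and in KO+Rescue and 4 in KO, and Col11a1 fell in KO+Rescue, with medians of 1.53, 1.32 and 1.12 for WT, KO and KO+Rescue. Of all tested genes 26.6%, 31.4% and 29.2% rose and 25.3%, 28.7% and 29.1% fell in the 3 genotypes. Col5a2 was called higher at day 2 in WT and KO+Rescue. In mESC it stood at 24.9 and 10.2 (WT), 12.3 and 13.5 (KO) and 13.6 and 14.2 (KO+Rescue). Its KO+Rescue call was lost with no filter (adjusted p = 0.0546) and in 4 of the 12 fits that left out 1 library. Col5a1, whose chain helps set the width of type I fibrils, had the highest mean count of the class, although Col2a1 was higher per kilobase. It stood at 171 and 104 (WT), 180.4 and 119 (KO) and 96.2 and 128 (KO+Rescue) in mESC. At day 2 Col5a1 stood at 493 and 262 (WT), 481 and 548 (KO) and 268 and 244 (KO+Rescue). The stages did not overlap, and the difference was 1.43 ± 0.32 (adjusted p = 0.00219) in WT, 1.80 ± 0.32 (adjusted p = 3.18e-04) in KO and 1.20 ± 0.32 (adjusted p = 0.00584) in KO+Rescue. Only 1 of the leave-one-out fits changed a call, that in KO+Rescue without KO+Rescue mESC A (adjusted p = 0.0513).

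The type I chains came on from low levels. Col1a2 stood at 10.7 and 15.3 (WT), 7.84 and 13.5 (KO) and 8.37 and 5.34 (KO+Rescue) in mESC. At day 2 Col1a2 stood at 93.8 and 50.7 (WT), 76.1 and 81.6 (KO) and 50.5 and 31.9 (KO+Rescue), above every mESC library. The difference was 2.35 ± 0.45 (adjusted p = 7.62e-04) in WT, 2.82 ± 0.45 (adjusted p = 1.46e-04) in KO and 2.42 ± 0.45 (adjusted p = 5.13e-04) in KO+Rescue. Its partner Col1a1 stood at 35.6 and 18.3 (WT), 38.1 and 9.44 (KO) and 16.7 and 16.0 (KO+Rescue) in mESC. At day 2 Col1a1 stood at 118 and 70.3 (WT), 43.6 and 33.7 (KO) and 15.3 and 20.7 (KO+Rescue). Col1a1 rose in WT, by 1.79 ± 0.56 (adjusted p = 0.016), while the differences in KO and KO+Rescue were 0.96 ± 0.56 and 0.11 ± 0.56. The WT call was lost without WT mESC B (adjusted p = 0.121) or WT day 2 A (adjusted p = 0.112). The change in KO was not shown to differ from that in WT, and the change in KO+Rescue was not tested against that in WT.

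Col2a1, the main chain of cartilage fibrils, stood at 245 and 149 (WT), 80.7 and 83.6 (KO) and 58.6 and 102 (KO+Rescue) in mESC. At day 2 Col2a1 stood at 275 and 243 (WT), 283 and 251 (KO) and 174 and 147 (KO+Rescue). The WT stages overlapped, with a difference of 0.44 ± 0.28 (adjusted p = 0.214), whereas KO and KO+Rescue started lower and rose by 1.69 ± 0.28 (adjusted p = 2.24e-04) and 1.04 ± 0.28 (adjusted p = 0.00697). The KO+Rescue call was lost without KO+Rescue mESC A (adjusted p = 0.0854) or KO+Rescue day 2 A (adjusted p = 0.0573). The difference of the KO effects between stages gave no call in any chain.

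Markers of fibroblasts or feeder cells were read beside the fibrillar chains. Of 12 markers 8 were tested, and 6 of them, Dcn, Twist1, Twist2, Tagln, Thy1 and Fbln5, rose in each genotype. The other tested markers, Acta2 and Pdgfrb, were not called and lay below 0. In WT, KO and KO+Rescue Acta2 differed by −0.60, −0.85 and −0.76 and Pdgfrb by −0.50, −0.44 and −0.67. The summed level of the 12 markers was 861 to 2373 in mESC and 2348 to 6040.1 at day 2. Tagln was its largest part in every library. Lum, Postn, Prrx1 and S100a4 had means of 3.70 or less in every group. Dcn, a proteoglycan of collagen fibrils, went from means of 0.509 to 2.02 in mESC to 183.6 to 380.3 at day 2. The part of these cells in the fibrillar result was not tested.

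The FACIT chains of type IX diverged. Col9a3 stood at 46.2 and 34.6 (WT), 28.0 and 21.6 (KO) and 28.2 and 23.2 (KO+Rescue) in mESC. At day 2 Col9a3 stood at 206 and 193 (WT), 246 and 172 (KO) and 79.8 and 122 (KO+Rescue). No library of one stage overlapped the other, and the rise was 2.29 ± 0.31 (adjusted p = 4.28e-05) in WT, 3.01 ± 0.31 (adjusted p = 2.86e-06) in KO and 1.91 ± 0.31 (adjusted p = 1.60e-04) in KO+Rescue. Col9a2 stood at 192 and 139 (WT), 173 and 161 (KO) and 111 and 102 (KO+Rescue) in mESC and at 151 and 156 (WT), 126 and 105 (KO) and 76.3 and 64.8 (KO+Rescue) at day 2. Col9a2 differed by −0.09 ± 0.23 (adjusted p = 0.753) in WT, −0.53 ± 0.23 (adjusted p = 0.0578) in KO and −0.59 ± 0.23 (adjusted p = 0.0393) in KO+Rescue, the last a fall whose call was lost without any 1 of the 4 KO+Rescue libraries or the 2 KO mESC libraries (adjusted p from 0.0527 to 0.187). That call was also lost with edgeR (adjusted p = 0.0755), DESeq2 (0.0778), no filter (0.0619), only the groups compared (0.0723) and equal library totals, where the difference was −0.22 (0.508). Col9a1 was low in both stages, at 2.99 to 26.98. Col22a1, a FACIT chain of tissue junctions, rose from 5.40 to 16.3 in mESC to 25.8 to 58.2 at day 2 and was called in each genotype, though not without WT mESC A (adjusted p = 0.0744), KO+Rescue mESC A (0.0955) or KO+Rescue day 2 B (0.128).

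Among the beaded filament chains, Col6a2 stood at 8.30 and 20.4 (WT), 3.36 and 8.09 (KO) and 7.32 and 7.12 (KO+Rescue) in mESC. At day 2 Col6a2 stood at 131 in both libraries (WT), 111 and 85.3 (KO) and 44.6 and 64.8 (KO+Rescue). The day 2 libraries were all higher, and the rise was 3.23 ± 0.47 (adjusted p = 8.81e-05) in WT, 3.96 ± 0.47 (adjusted p = 1.16e-05) in KO and 2.74 ± 0.47 (adjusted p = 2.81e-04) in KO+Rescue. Its partner Col6a1 stood at 3.56 and 1.02 (WT), 4.48 and 0 (KO) and 0 in both libraries (KO+Rescue) in mESC and at 37.5 and 35.5 (WT), 20.7 and 17.2 (KO) and 4.69 and 8.45 (KO+Rescue) at day 2. No read of Col6a1 was found in either KO+Rescue mESC library, so there it was at least 3.43-fold higher at day 2 against a floor of 3 reads over the group. Col6a1 was called in each genotype, but the KO call was lost without KO mESC B. Its KO+Rescue call was lost without KO+Rescue day 2 B. Col6a3, the other chain of the usual type VI trimer, had 26 reads over all libraries.

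Col6a4 and Col6a5 are alternative chains of that collagen. Col6a4 stood at 41.5 and 45.8 (WT), 14.6 and 17.5 (KO) and 23.0 and 12.5 (KO+Rescue) in mESC and at 18.2 and 21.7 (WT), 27.3 and 20.2 (KO) and 4.69 and 8.45 (KO+Rescue) at day 2. It fell in KO+Rescue, with a difference of −1.29 ± 0.45 (adjusted p = 0.0257), a call lost without KO+Rescue mESC A (adjusted p = 0.172) or KO+Rescue day 2 A (adjusted p = 0.168). This call was also lost with DESeq2 (adjusted p = 0.0727), no filter (0.0556), only the groups compared (0.0959) and equal library totals (difference −0.96, 0.0966). Col6a5 stood at 74.7 and 66.1 (WT), 22.4 and 22.9 (KO) and 20.9 and 14.2 (KO+Rescue) in mESC and at 133 and 123 (WT), 69.4 and 52.4 (KO) and 71.6 and 33.8 (KO+Rescue) at day 2. It rose in KO and KO+Rescue, by 1.37 ± 0.37 (adjusted p = 0.00578) and 1.46 ± 0.37 (adjusted p = 0.0041), and by 0.85 ± 0.37 (adjusted p = 0.0658) in WT, which missed the threshold. Both calls were lost without a day 2 library A, that of KO (adjusted p = 0.0566) or of KO+Rescue (adjusted p = 0.0687).

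Other classes held few members. Col7a1, which forms the anchoring fibrils below epithelia, stood at 17.8 and 12.2 (WT), 3.36 and 12.1 (KO) and 17.8 and 28.5 (KO+Rescue) in mESC. At day 2 Col7a1 stood at 50.8 and 49.99 (WT), 100.5 and 78.6 (KO) and 48.1 and 59.2 (KO+Rescue), and the rise was 1.71 ± 0.48 (adjusted p = 0.00999) in WT, 3.57 ± 0.48 (adjusted p = 3.78e-05) in KO and 1.21 ± 0.48 (adjusted p = 0.0469) in KO+Rescue. The WT call was lost without WT mESC B (adjusted p = 0.0635), and the KO+Rescue call in 8 of the 12 fits that left out 1 library (adjusted p from 0.0507 to 0.221 in those). Col8a2, a short-chain network collagen of the cornea's endothelial membrane, had 4 reads in WT mESC A and 0 in the other 5 mESC libraries. At day 2 Col8a2 stood at 22.4 and 37.0 (WT), 30.3 and 23.9 (KO) and 19.9 and 18.8 (KO+Rescue), which was at least 14.8-fold above mESC in KO and at least 9.77-fold in KO+Rescue, against the same floor of 3 reads. Col26a1 stood at 61.6 and 37.6 (WT), 38.1 and 60.7 (KO) and 32.4 and 21.4 (KO+Rescue) in mESC and at 93.2 and 65.2 (WT), 59.8 and 13.5 (KO) and 23.5 and 18.8 (KO+Rescue) at day 2, with no stage call.

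Besides Col6a4 and Col9a2, the falling chains in KO+Rescue were Col13a1 and Col11a1. Col13a1, a transmembrane collagen of adhesion sites, stood at 16.6 and 18.3 (WT), 14.6 and 13.5 (KO) and 17.8 and 16.0 (KO+Rescue) in mESC. At day 2 Col13a1 stood at 27.2 and 26.8 (WT), 10.3 and 6.73 (KO) and 0 and 1.88 (KO+Rescue). The KO+Rescue libraries held 2 reads together at day 2, a 16.4 (95% interval 4.11 to 143) times lower rate than in mESC, and the fall was −3.40 ± 0.57 (adjusted p = 2.23e-04). Col11a1, a minor chain of cartilage fibrils, stood at 52.2 and 39.7 (WT), 96.4 and 45.9 (KO) and 86.8 and 74.8 (KO+Rescue) in mESC and at 50.2 and 56.5 (WT), 52.4 and 41.2 (KO) and 34.0 and 16.9 (KO+Rescue) at day 2. It fell in KO+Rescue, with a difference of −1.70 ± 0.40 (adjusted p = 0.00277), and differed by 0.22 ± 0.40 in WT and −0.51 ± 0.40 in KO. The count of calls in KO+Rescue was 11 without KO+Rescue mESC A and 12 without KO+Rescue day 2 A, in place of 19.

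The basement membrane and other chains were then set side by side. The 3 tested Col4a chains had median day 2 differences of 2.41, 2.71 and 2.53 for the WT, KO and KO+Rescue lines, and the 24 other tested chains 0.81, 1.00 and 0.87. All 3 Col4a chains were called in each genotype, and 12 of the 24 others rose in each. With equal library totals in place of the size factors the median of all tested genes moved up by 0.23, 0.34 and 0.36 in the 3 genotypes, and 23, 22 and 23 of the 27 chains lay above 0, in place of 22, 22 and 20. Whether the classes differ was not tested, and Col4a5 passed the filter through its day 2 level.

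**Figure D3:**
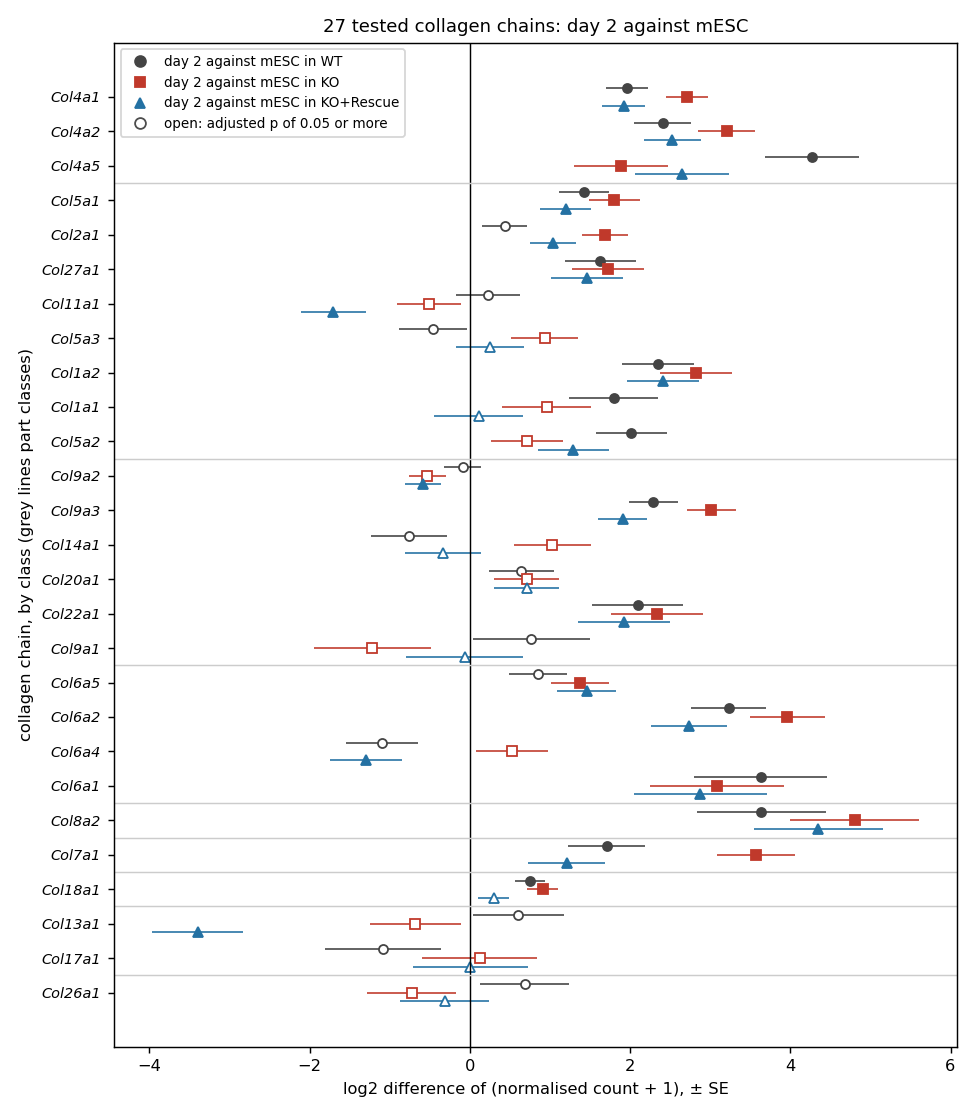
Log2 difference of (normalised count + 1) between day 2 and mESC, ± SE, for the 27 tested collagen chains in WT (circles), KO (squares) and KO+Rescue (triangles), grouped by class. Filled symbols have an adjusted p under 0.05 (limma), and Col4a1, Col4a2 and Col4a5 at the top are filled in each genotype, between 1.89 and 4.27.

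The next comparison asks which chains differ between KO and WT in mESC. Of the 27 tested chains 1 was higher and 4 were lower in KO, where 3.23% of all tested genes were higher and 6.26% lower. Col4a5 was higher, by 2.89 ± 0.59 (adjusted p = 0.00976), on 16 reads in KO against 1 in WT, a ratio of 17.9 (95% interval 2.78 to 750.0). Col2a1 was lower, with a difference of −1.21 ± 0.28 (adjusted p = 0.0201) and Col6a5 with one of −1.59 ± 0.37 (adjusted p = 0.0182), and for both the KO values given earlier lay below both WT libraries. Col5a3, a chain of type V collagen, stood at 77.1 and 52.9 (WT), 22.4 and 17.5 (KO) and 29.3 and 26.7 (KO+Rescue) and was lower, with a difference of −1.64 ± 0.42 (adjusted p = 0.0287). Col14a1, a FACIT chain that binds fibrils, stood at 66.4 and 42.7 (WT), 14.6 and 18.9 (KO) and 45.0 and 37.4 (KO+Rescue) and was lower, with a difference of −1.63 ± 0.48 (adjusted p = 0.0494). In the KO+Rescue libraries Col14a1 lay between the KO and WT values or within WT, while Col5a3 stayed below WT.

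These calls rested on single libraries, and that of Col14a1 was lost in 9 of the 12 fits that left out 1. Without WT mESC A or KO mESC A, 0 of the 27 chains were called, and without KO mESC B only Col4a5 was. Leaving out both WT A libraries gave adjusted p of 0.0816 for Col4a5, 0.106 for Col6a5, 0.151 for Col2a1, 0.155 for Col14a1 and 0.181 for Col5a3. With all libraries, DESeq2 did not call Col4a5 (adjusted p = 0.0571) and edgeR did not call Col14a1 (adjusted p = 0.0523). By limma Col4a1 and Col4a2 differed by 0.21 ± 0.26 and 0.27 ± 0.36 and were not called. Without the WT A libraries the median of the 27 went from −0.37 to −0.09.

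At day 2 limma called 0 of the 27 chains between KO and WT, where 5.21% of all tested genes were called. At an unadjusted p under 0.05 there were 7, and edgeR and DESeq2, run on the recovered reads, each called 3: Col4a1, Col4a2 and Col5a2. The shares of all tested genes at that cut or by those tools are not given here. These counts therefore do not show whether the chains differ from other genes. Col4a1 was higher in both KO libraries than in either WT library, by 0.95 ± 0.26 (adjusted p = 0.0553), and adjusted p was 0.0288 with edgeR and 0.0118 with DESeq2. Col4a2 gave 1.07 ± 0.36 (adjusted p = 0.116), with 0.0376 and 0.0242 by those tools. Col5a2, a chain of type V collagen, stood at 84.7 and 54.3 (WT), 24.4 and 19.5 (KO) and 35.2 and 35.7 (KO+Rescue) at day 2, so the KO libraries lay below WT and KO+Rescue, and gave −1.60 ± 0.44 (adjusted p = 0.0565), with 0.0225 and 0.0223. WT A and WT B differed widely for both Col4a genes, and the size of the difference followed the WT library used. With both WT A libraries left out Col4a1 differed by 1.34 (adjusted p = 4.89e-04) and Col4a2 by 1.44 (adjusted p = 0.00617). Without WT day 2 B they differed by 0.57 (adjusted p = 0.225) and 0.69 (adjusted p = 0.336). Leaving out 1 library gave 0 to 3 calls, with 3 without WT mESC A or B and 1 without WT day 2 A or KO day 2 A.

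KO+Rescue was compared with KO to ask what returned with the transgene. In mESC limma called 0 of the 27 chains, where 1.51% of all tested genes were called. At an unadjusted p under 0.05 there were 4, and edgeR and DESeq2 called 0, again without the shares of all tested genes. Col4a1 differed by −0.40 ± 0.26 and Col4a2 by −0.48 ± 0.36. The median over the 27 was −0.09.

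At day 2 KO+Rescue was lower than KO in 3 of the 27 chains and higher in 0, where 1.33% of all tested genes were lower and 0.502% higher. Col4a1 was lower, with a difference of −1.19 ± 0.26 (adjusted p = 0.0412), with both libraries below both KO libraries. Col18a1 was lower, with a difference of −0.88 ± 0.19 (adjusted p = 0.0364). Col13a1 was lower, with a difference of −2.46 ± 0.57 (adjusted p = 0.0469), on 2 reads against 23, a rate 8.19 (95% interval 2.02 to 71.7) times lower. Col4a2, at −1.15 ± 0.36, had an adjusted p of 0.126 by limma and of 0.0129 by DESeq2. In sign, 23 of the 27 chains lay below 0 (24 with equal library totals), with a median of −0.72 beside −0.02 over all genes. The groups did not overlap in 19 of the 27, and in 60.9% of all tested genes.

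The 3 calls were close to the threshold. The count was 0 without KO mESC A or B, KO day 2 A or B, KO+Rescue mESC A or KO+Rescue day 2 A, and 1 without KO+Rescue mESC B or KO+Rescue day 2 B. The adjusted p of Col4a1 ranged from 0.0101 to 0.318 over the 12 fits that left out 1 library, and its difference from −1.24 to −1.13. The Col13a1 call was lost with edgeR (adjusted p = 0.0932), and with equal library totals those of Col4a1 (0.0687) and Col18a1 (0.07) were.

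Some markers of mesendoderm and endoderm also differed between the genotypes at day 2. Of 7 mesendoderm markers 5 were tested, and Eomes and T were higher in KO than in WT, by 1.82 ± 0.25 (adjusted p = 8.69e-04) and 1.30 ± 0.26 (adjusted p = 0.0108), and lower in KO+Rescue than in KO, with differences of −2.31 ± 0.25 (adjusted p = 6.28e-04) and −1.84 ± 0.26 (adjusted p = 0.00326). The other tested markers, Mixl1, Gsc and Foxa2, were not called in either comparison. Day 2 means for WT, KO and KO+Rescue were 30.6, 19.3 and 19.7 for Mixl1 and 7.37, 7.07 and 2.93 for Gsc. Those of Foxa2, which is on both lists, were 19.5, 27.5 and 6.92. The summed level of the mesendoderm list at day 2 was 211 and 161 for WT, 460.2 and 442 for KO and 135 and 105 for KO+Rescue. Most of that sum was Eomes and T. Of the 8 tested endoderm markers only Gata4 was called between KO and WT. It was higher in KO, by 1.71 ± 0.40 (adjusted p = 0.0252), and differed by −0.36 ± 0.40 between KO+Rescue and KO. The median of the 8 for KO against WT was −0.26. Plat (−1.14), Sox7, Cubn, Dab2, Amn and Pdgfra lay below 0 and Foxa2 above. The part of these cells in the differences of Col4a1 and the other chains was not tested.

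The comparison of KO+Rescue with WT uses libraries that also enter the comparisons with KO, and its values are given beside them. In mESC 0 chains were higher and 3 were lower in KO+Rescue than in WT, where 9.15% and 9.04% of all tested genes were. They were Col6a5 at −1.96 ± 0.37 (adjusted p = 0.00747), Col2a1 at −1.30 ± 0.28 (adjusted p = 0.0136) and Col18a1 at −0.65 ± 0.19 (adjusted p = 0.035). Without WT mESC A none was called, without KO+Rescue mESC B 1 was and without WT mESC B there were 6.

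At day 2 0 chains were higher and 6 were lower in KO+Rescue than in WT, where 3.9% of all tested genes were higher and 7.2% lower. Col13a1 was lower, with a difference of −4.05 ± 0.57 (adjusted p = 8.51e-04), on 2 reads against 82, a rate 25.9 (95% interval 6.95 to 218) times lower. Col18a1 was lower, with a difference of −1.10 ± 0.19 (adjusted p = 0.0034) and Col9a2 with one of −1.12 ± 0.23 (adjusted p = 0.0089). Col1a1 gave −2.30 ± 0.56 (adjusted p = 0.0214), Col6a5 −1.36 ± 0.37 (adjusted p = 0.0332) and Col6a4 −1.51 ± 0.45 (adjusted p = 0.0488). Col6a1, Col6a2, Col9a3 and Col26a1 were also called lower by edgeR (adjusted p from 0.0232 to 0.0378) and by DESeq2 (from 0.01625 to 0.0377). Neither tool called Col6a4 (0.0679 and 0.0925). The shares of all tested genes called by those tools are not given here. The calls of Col13a1 and Col18a1 held without any 1 library. The count was 3 without WT day 2 A and 2 without KO+Rescue day 2 B. Without KO+Rescue day 2 B the adjusted p was 0.0859 for Col9a2, 0.0881 for Col1a1, 0.269 for Col6a5 and 0.0887 for Col6a4, and without WT day 2 A it was 0.131, 0.139 and 0.137 for the last 3. The Col6a4 call was lost in 10 of the 12 fits that left out 1 library.

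Against WT at day 2 the Col4a genes of KO+Rescue overlapped the WT libraries. Col4a1 differed by −0.23 ± 0.26 (95% interval −0.80 to 0.34), Col4a2 by −0.09 ± 0.36 (−0.86 to 0.68) and Col4a5 by −0.06 ± 0.59 (−1.33 to 1.21). Their median was −0.09 (0.16 without the WT A libraries), while that of the 24 other chains was −0.96. The median of the 24 without the WT A libraries is not given here. At day 2 WT A exceeded WT B in 22 of the 27 tested chains. Both KO+Rescue values of Col4a1 lay between the 2 WT libraries. Those of Col18a1, Col13a1, Col9a2, Col1a1, Col6a5 and Col6a4 lay below both.

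The effects of the 2 stages were also tested against each other. For KO against WT limma called 0 of the 27 chains (1.13% of all tested genes), with 6 at an unadjusted p under 0.05. For KO+Rescue against KO it called 0 (0.0847%), with 5. edgeR and DESeq2 called 0 in both. The unadjusted counts and those of edgeR and DESeq2 stand without the shares of all tested genes. A difference called in 1 stage was therefore not shown to differ from that in the other for these 2 comparisons, and for KO+Rescue against WT the stages were not tested against each other.

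**Figure D4:**
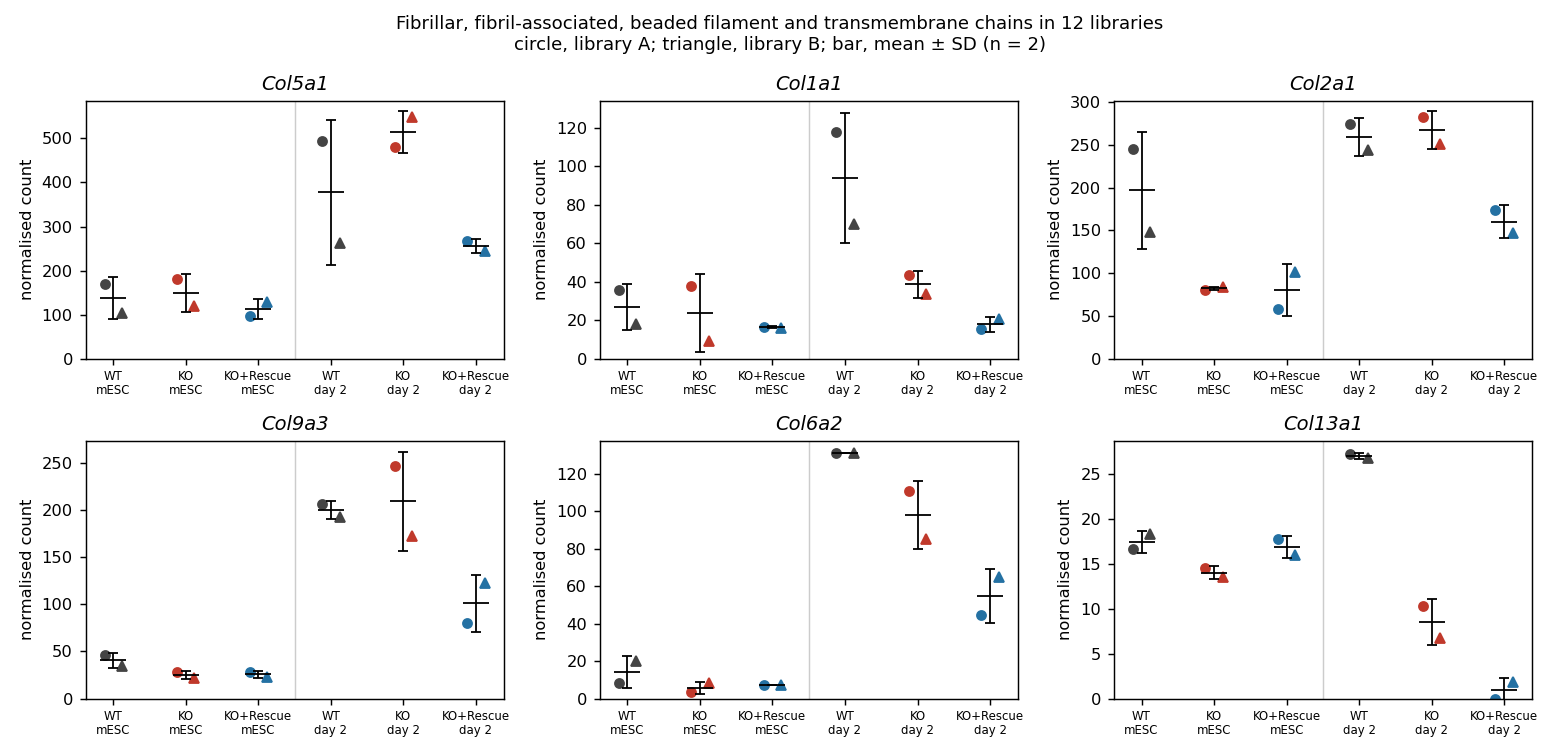
Normalised counts of Col5a1, Col1a1, Col2a1, Col9a3, Col6a2 and Col13a1 in the 12 libraries by genotype and stage, on linear axes from 0, with circles for library A, triangles for library B and bars for the mean ± SD (n = 2). Col1a1 is highest in the WT day 2 libraries (118 and 70.3) and Col13a1 is at 0 and 1.88 in KO+Rescue at day 2.

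**Figure D5:**
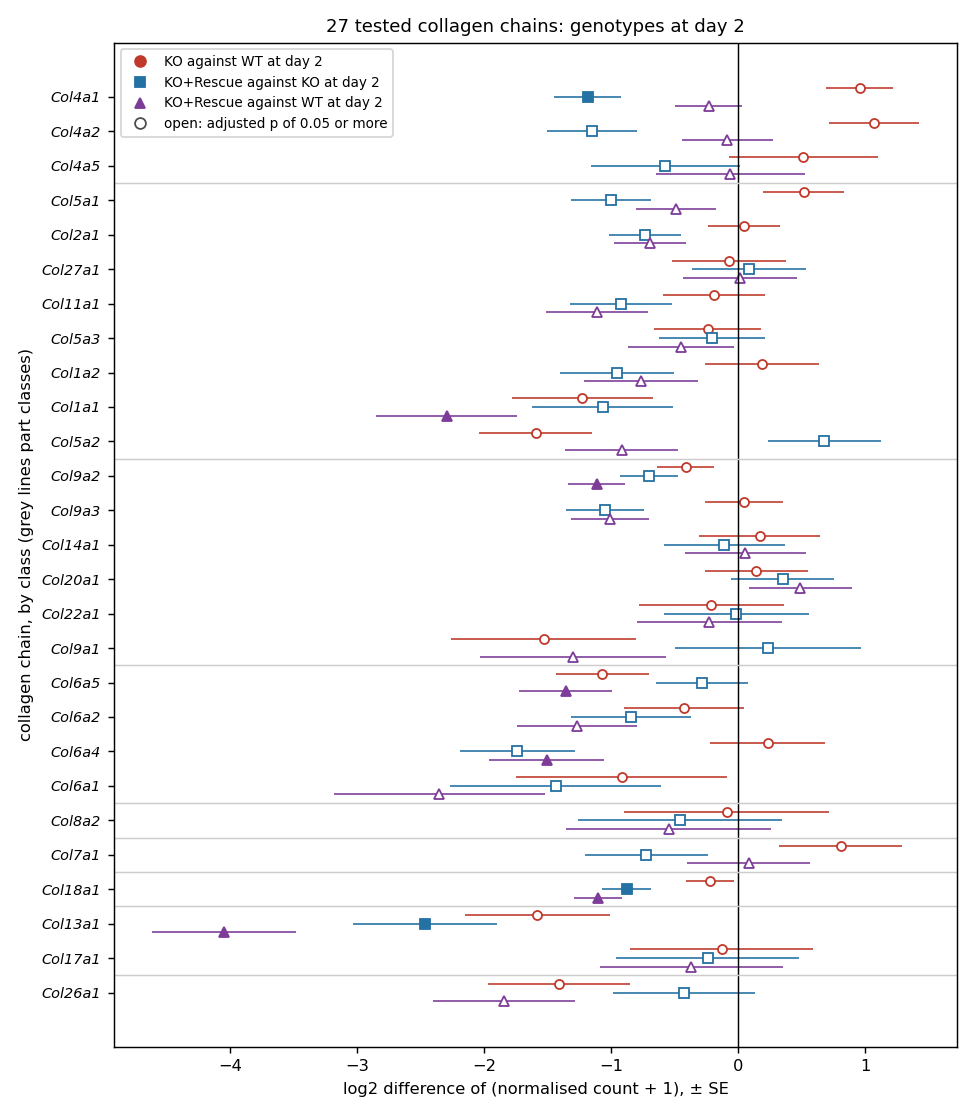
Log2 difference of (normalised count + 1) at day 2, ± SE, for the 27 tested collagen chains in KO against WT (circles), KO+Rescue against KO (squares) and KO+Rescue against WT (triangles). Filled symbols have an adjusted p under 0.05 (limma), no circle is filled, and the 3 comparisons share libraries.

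Chains that form a trimer together were set against each other per kilobase. The ratio of Col4a1 to Col4a2 was 3.50 and 4.83 for WT mESC, 3.48 and 4.43 for KO and 4.88 and 3.57 for KO+Rescue. At day 2 it was 3.00 and 2.96, 2.52 and 3.01 and 3.00 and 2.42, below every mESC value. The ratio of Col1a1 to Col1a2 at day 2 was 1.15 and 1.27 for WT, 0.525 and 0.379 for KO and 0.277 and 0.593 for KO+Rescue, so Col1a1 was the more abundant type I chain in WT alone. In mESC this ratio ranged from 0.642 to 4.45, both within KO. Col5a1 exceeded Col5a2 in every library, by 5.21 and 4.30 times in WT at day 2 and by 17.6 and 25.2 times in KO. Col9a2 exceeded Col9a3 4.41 to 8.34 times in mESC, and the ratio was 0.576 to 1.07 at day 2. These ratios are a description with no test.

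Other genes of the collagen pathway were counted from lists chosen by function. Of 25 partners of type IV collagen in basement membranes 21 were tested, and in WT 6 rose and 8 fell at day 2. In KO 5 rose and 7 fell, and KO+Rescue had 6 that rose and 10 that fell. Beside these and the lists that follow stand the shares of all tested genes, which are 26.6%, 31.4% and 29.2% rising and 25.3%, 28.7% and 29.1% falling for WT, KO and KO+Rescue. Sparc, which binds type IV collagen, fell from a mean of 17623 to 4437 in WT, a difference of −1.99 ± 0.12 (adjusted p = 5.26e-08). Nid1, which links laminin to type IV collagen, fell, with a difference of −2.96 ± 0.23 (adjusted p = 3.32e-07) in WT, −3.19 ± 0.23 (adjusted p = 1.16e-07) in KO and −2.92 ± 0.23 (adjusted p = 2.59e-07) in KO+Rescue. The laminin chain Lamc1 fell, with a difference of −1.35 ± 0.19 (adjusted p = 7.29e-05) in WT and Lamb1 rose by 1.24 ± 0.19 (adjusted p = 1.27e-04). In the comparison of KO+Rescue with KO at day 2, Sparc was lower, with a difference of −1.18 ± 0.12 (adjusted p = 5.55e-04), as Col4a1 was. Lama3 was lower in KO than in WT in both stages, with differences of −1.09 ± 0.16 (adjusted p = 0.00124) and −1.52 ± 0.16 (adjusted p = 8.38e-05).

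Of 24 genes that fold, modify and export collagen 21 were tested. In WT 7 rose at day 2, in KO 8 and in KO+Rescue 9, while 8 fell in each. P4ha2, a subunit of the prolyl hydroxylase that stabilises the triple helix, rose by 2.06 ± 0.20 (adjusted p = 2.23e-06) in WT, 1.89 ± 0.20 (adjusted p = 3.35e-06) in KO and 1.74 ± 0.20 (adjusted p = 7.37e-06) in KO+Rescue. Serpinh1, the collagen chaperone HSP47, was lower in KO than in WT at day 2, with a difference of −0.61 ± 0.11 (adjusted p = 0.00764) and in KO+Rescue than in WT, with a difference of −0.78 ± 0.11 (adjusted p = 0.00115). Of the 22 genes that trim, cross-link or break down collagen 20 were tested, of which 11 rose and 5 fell both in WT and in KO+Rescue, while 12 rose and 4 fell in KO. Mmp2, a protease that cuts type IV collagen, rose by 2.84 ± 0.29 (adjusted p = 4.39e-06) in WT, 4.21 ± 0.29 (adjusted p = 9.33e-08) in KO and 4.07 ± 0.29 (adjusted p = 1.23e-07) in KO+Rescue. Pcolce, an enhancer of procollagen trimming, fell, with differences of −2.91 ± 0.14 (adjusted p = 7.87e-09) in WT, −3.12 ± 0.14 (adjusted p = 2.81e-09) in KO and −3.85 ± 0.14 (adjusted p = 3.95e-10) in KO+Rescue. Of the 17 collagen and laminin receptors 14 were tested, and 8, 7 and 5 rose while 3 fell in each genotype. The collagen receptor Ddr1 rose by 1.66 ± 0.21 (adjusted p = 2.25e-05) in WT.

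Every other member stayed below a mean of 10. The 17 chains were Col3a1, Col4a3, Col4a4, Col4a6, Col6a3, Col6a6, Col8a1, Col10a1, Col11a2, Col12a1, Col15a1, Col16a1, Col19a1, Col23a1, Col24a1, Col25a1 and Col28a1. No chain was at 0 in all 12 libraries, but 6 of the 44 had fewer than 20 reads in all. The highest single value among the 17 was 22.3, of Col24a1 in KO+Rescue day 2 A, where library B stood at 7.51. Col3a1, the fibrillar chain of soft tissues, stood at 10.9 and 7.25 (WT), 8.86 and 10.5 (KO) and 1.17 and 0.939 (KO+Rescue) at day 2, and the KO+Rescue libraries held 2 reads against 26 in KO, a rate 9.26 (95% interval 2.32 to 80.5) times lower. Col16a1 was just below the threshold at a mean of 9.05, and Col6a1 just above it at 11.1. The tested chains whose values are not given above, Col17a1, Col20a1 and Col27a1, spanned 3.36 to 30.5, 17.3 to 42.2 and 18.8 to 118 over the 12 libraries. Of these only Col27a1 was called, higher at day 2 in each genotype. The Col27a1 call was lost without WT mESC B, WT day 2 A, KO day 2 B, KO+Rescue mESC A or KO+Rescue day 2 A in its own genotype (adjusted p from 0.0539 to 0.144).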

How the data were processed

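Gene expression was measured by RNA-seq in 12 libraries, 2 for each of 6 groups. The authors aligned the reads to mm10, counted read pairs per RefSeq gene and deposited the counts divided by DESeq2 size factors, a signal that is not a whole-number count (the submitters' processing notes name Trimmomatic, STAR, featureCounts and DESeq2, with no version given). Each library's value for 1 read was recovered from its low values, and 100% of values were then whole reads within 0.001.

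Groups came from the GEO labels, and no label ties a column letter to a replicate number. Deviations of same-letter libraries correlated at 0.12 to 0.17 among the mESC groups, at −0.05 to 0.06 among the day 2 groups and at 0.41 between the WT stages. With 2 libraries a group and no label, letters were not treated as pairs. All values of log2(normalised count + 1) were fitted together with limma 3.58.1 (R 4.3.3; trend, 6 group means, 6 residual degrees of freedom) for genes with a mean of at least 10, with two-sided tests and Benjamini-Hochberg adjustment over 15341 genes. edgeR 4.0.16 and DESeq2 1.42.0 were run on the recovered reads. Other alternatives were a pseudocount of 0.5, no filter, a minimum mean of 50, equal library totals, only the groups compared, the letter as a replicate block and leaving out each library. On simulated data for KO against WT at day 2 (15341 genes) limma recovered 76% of 2-fold and 93% of 4-fold changes, with 3.43% false calls. The labels say biological replicates, but not whether these were separate cultures, so p-values measure the spread between these libraries. Ratios of reads have exact 95% binomial intervals, which cover counting error only. Replicate pairs differed beyond sampling noise. Chain values in every library are given for the Col4a genes, for up to 6 called chains in each direction of each comparison by adjusted p, and for the chain of each class with the highest mean count. The members and the lists of related genes were chosen with earlier results of these data known. Sequences are RefSeq (GRCm38.p6). No p was computed over the members alone.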

Additional observations from a re-analysis of the deposited data

How the results depend on the processing

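No called chain changed direction under any setting, over 66 calls of 1 chain in 1 comparison. Counts that moved by over 1.5 times are given here. They stand without the shares of all tested genes under the same settings. They therefore do not show whether the chains differ from other genes. For KO against WT in mESC 5 calls became 3 with no filter, 2 with a minimum mean of 50, 0 with only the groups compared and 0 with both WT A libraries left out (a setting chosen after seeing the data). For KO against WT at day 2 0 became 3 with edgeR, 3 with DESeq2 and 2 without the WT A libraries. For KO+Rescue against KO at day 2 3 became 0 with no filter, 1 with equal library totals, 5 with DESeq2, 8 with only the groups compared and 5 without the WT A libraries. For KO+Rescue against WT 3 in mESC became 6 with equal totals, 1 with only the groups compared and 1 without the WT A libraries, and 6 at day 2 became 3 with a minimum mean of 50 and 3 without the WT A libraries. The stage counts of 15, 15 and 19 became 7, 9 and 10 with a minimum mean of 50, which leaves 11 chains to test. With a minimum mean of 50 all 36 calls of chains still tested were kept, so the falls under that setting came from chains no longer tested. For the other settings the cause was not tested. Equal library totals moved the median of all tested genes by 0.23 to 0.36 in the stage comparisons and by −0.32 to −0.09 in the genotype comparisons.

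Leaving out 1 library gave 0 to 7 calls for KO against WT in mESC, 0 to 3 at day 2, 0 to 4 for KO+Rescue against KO at day 2, 0 to 6 and 2 to 7 for KO+Rescue against WT in mESC and at day 2, and 11 to 16, 13 to 16 and 11 to 19 for the stage in WT, KO and KO+Rescue. With the letter as a replicate block the genotype counts were 6 in mESC and 3 at day 2 for KO against WT, 7 for KO+Rescue against KO at day 2, and 5 and 10 for KO+Rescue against WT. In mESC the calls gained were Col6a4 for KO against WT and Col9a2 and Col5a3 for KO+Rescue against WT. Counts of calls with 1 library left out, here and above, and with the block also stand without the shares of all tested genes. Whether the letters pair the libraries is not known. With 2 libraries a group, several calls close to the threshold ended when 1 library was left out, and chains with few reads have wide counting intervals.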
